A study of Mus musculus with 10 samples.

Results

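Chromatin accessibility was examined around 9 genes that encode cytokines drawing macrophages and other leukocytes: *Csf1*, *Il34*, *Cxcl12*, *Ccl2*, *Ccl7*, *Cx3cl1*, *Cxcl1*, *Il6* and *Il33*. A peak summit was counted when it lay inside one of these genes or within 50 kb of it on mm10, and a summit within 1 kb of the gene start was taken as belonging to the promoter. Of 1071660 summits in 9 bulk ATAC-seq libraries of embryonic mouse heart cells, 965 met this rule, with 88 to 121 in each library. They formed 156 regions of 501 bp out of 184764 in the genome, and 138 of them (of 157289) were called in at least 2 of the 9 libraries and could be tested. *Ccl2* and *Ccl7* are neighbours and share 20 regions.

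All libraries came from Rosa26tdTomato;Wt1CreERT2/+ embryos on a C57BL/6J background whose mothers received tamoxifen at E9.5, which marks cells expressing *Wt1* at that time, and their descendants, with tdTomato. Epicardial cells were sorted as CD31-tdTomato+PDPN+ at E11.5 (3 libraries of 6 pooled hearts) and E17.5 (3 libraries of 4 pooled hearts). Epicardium-derived cells (EPDCs) were sorted as CD31-tdTomato+PDPN-, with 1 library at E12.5 and 2 at E13.5 (4 to 13 pooled hearts at E13.5 per the labels, with a narrower range in the methods and no number for E12.5). These 3 libraries were compared as one group, since the methods take both days as 1 stage. The technical replicates of the E13.5 sample 2 share 1 list. Podoplanin, the product of *Pdpn*, thus defined the sort and is no finding here, and recombination reached only cells with an active *Wt1* locus at the time of treatment.

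ATAC-seq uses the Tn5 transposase to insert adapters into open chromatin, so that fragments pile up over accessible promoters and enhancers. The epicardium is the mesothelial sheet that covers the heart, and part of it leaves the surface by epithelial to mesenchymal transition to form fibroblasts and mural cells. Macrophages and other leukocytes enter the developing heart from outside. CSF1 and IL-34 are both ligands of CSF1R, the receptor that keeps macrophages alive. CXCL12 acts through CXCR4 and is scavenged by ACKR3, CCL2 and CCL7 draw monocytes through CCR2, CX3CL1 (fractalkine) binds CX3CR1 and CXCL1 draws neutrophils through CXCR2. IL-6 signals through IL6RA and the shared subunit gp130 (*Il6st*), and IL-33 is a nuclear cytokine released from damaged cells that acts on ST2 (*Il1rl1*) with IL1RAP. Accessibility does not measure transcription, and no statement on expression is made.

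The proximal promoters shown here are those whose accessibility differed in a test (*Ccl7*, *Cx3cl1*, *Il33*) and those holding an NF-kB match (*Csf1*, *Cxcl1*, *Il6*), a motif of inflammatory transcription factors. Each is the 200 bases before the gene start on the gene's strand (GRCm38, the build of mm10). Capitals mark matches to motifs searched on both strands. These were TGANTCA for AP-1 (the Fos and Jun factors), AGGTGTGA for the T-box factor TBX20, CATTCC for the TEAD factors of the Hippo pathway, AGATAA for the GATA factors of mesoderm, TTGCNNAA for the C/EBP factors, and the degenerate consensus of WT1 and of NF-kB.
Csf1 promoter, chr3:107760470-107760669, minus strand: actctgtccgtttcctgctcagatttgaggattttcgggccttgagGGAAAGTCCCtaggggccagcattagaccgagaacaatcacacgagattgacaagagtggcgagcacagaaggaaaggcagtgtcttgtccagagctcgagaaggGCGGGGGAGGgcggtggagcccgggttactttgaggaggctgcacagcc
Ccl7 promoter, chr11:82045512-82045711, plus strand: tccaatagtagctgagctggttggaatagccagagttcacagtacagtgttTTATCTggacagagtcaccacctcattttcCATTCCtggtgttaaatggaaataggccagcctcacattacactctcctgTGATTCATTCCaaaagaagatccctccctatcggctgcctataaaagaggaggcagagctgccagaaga
Cx3cl1 promoter, chr8:94771809-94772008, plus strand: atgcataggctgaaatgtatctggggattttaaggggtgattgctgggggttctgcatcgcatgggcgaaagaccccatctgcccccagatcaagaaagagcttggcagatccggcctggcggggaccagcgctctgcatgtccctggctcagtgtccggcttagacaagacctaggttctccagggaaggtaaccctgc
Cxcl1 promoter, chr5:90891041-90891240, plus strand: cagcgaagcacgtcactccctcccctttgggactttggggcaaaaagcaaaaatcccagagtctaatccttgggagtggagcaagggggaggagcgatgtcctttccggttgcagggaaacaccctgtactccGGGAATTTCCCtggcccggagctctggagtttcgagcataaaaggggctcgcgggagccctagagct
Il6 promoter, chr5:30012914-30013113, plus strand: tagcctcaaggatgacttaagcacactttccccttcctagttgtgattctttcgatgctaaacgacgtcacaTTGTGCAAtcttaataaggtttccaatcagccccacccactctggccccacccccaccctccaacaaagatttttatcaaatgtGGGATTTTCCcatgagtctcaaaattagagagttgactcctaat
Il33 promoter, chr19:29924914-29925113, plus strand: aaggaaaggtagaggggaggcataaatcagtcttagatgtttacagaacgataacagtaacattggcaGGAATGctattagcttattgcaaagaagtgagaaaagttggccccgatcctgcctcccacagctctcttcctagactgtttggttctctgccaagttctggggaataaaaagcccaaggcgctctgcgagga

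In *Csf1* the capitals are an NF-kB match starting at −154 and a WT1 match at −49 from the gene start. *Ccl7* holds a GATA match at −149, TEAD matches at −119 and −64 and an AP-1 match at −69 that overlaps the second TEAD match. *Cxcl1* has overlapping NF-kB matches at −67 and −66, *Il6* a C/EBP match at −128 and an NF-kB match at −44, and *Il33* a TEAD match at −132. No match was found in *Cx3cl1*. Of 21938 protein-coding genes, the window of the same length held an NF-kB match in 3.51%, WT1 in 3.71%, AP-1 in 4.81%, GATA in 6.84%, C/EBP in 7.19% and TEAD in 9.07%. A match is a string of letters and no evidence of binding.

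Regions outside promoters from among those that differed most, up to 2 in each direction of each comparison, are given as the central 200 bases, on the strand of the cytokine gene, with the same motifs and the MAF motif (TGCTGA) in capitals. The name gives the distance of the region centre in bp from the gene start along the strand of the gene.
Il33 +5334, intron of Il33, higher at E17.5, chr19:29930348-29930547: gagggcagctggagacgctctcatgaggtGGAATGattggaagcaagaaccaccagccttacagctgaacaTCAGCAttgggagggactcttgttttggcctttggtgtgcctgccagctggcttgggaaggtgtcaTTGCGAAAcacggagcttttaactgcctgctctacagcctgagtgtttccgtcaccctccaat
Il33 -15762, intergenic, higher at E17.5, chr19:29909252-29909451: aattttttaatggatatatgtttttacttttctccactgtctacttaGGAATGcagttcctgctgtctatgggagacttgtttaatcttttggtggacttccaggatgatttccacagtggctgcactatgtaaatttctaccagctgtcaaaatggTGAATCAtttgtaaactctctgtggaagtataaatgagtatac
Cx3cl1 +17421, intergenic, lower at E17.5, chr8:94789330-94789529: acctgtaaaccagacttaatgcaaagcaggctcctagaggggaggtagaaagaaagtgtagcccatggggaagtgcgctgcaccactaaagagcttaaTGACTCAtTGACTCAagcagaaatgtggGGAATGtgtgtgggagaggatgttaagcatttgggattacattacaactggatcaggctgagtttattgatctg
Cxcl1 +7369, intergenic, lower at E17.5, chr5:90898510-90898709: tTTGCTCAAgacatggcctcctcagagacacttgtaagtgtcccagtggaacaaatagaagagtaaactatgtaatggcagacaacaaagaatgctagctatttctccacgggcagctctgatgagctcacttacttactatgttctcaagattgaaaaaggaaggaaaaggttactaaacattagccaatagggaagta
Il34 +86417, intron of Vac14, higher in EPDCs, chr8:110719407-110719606: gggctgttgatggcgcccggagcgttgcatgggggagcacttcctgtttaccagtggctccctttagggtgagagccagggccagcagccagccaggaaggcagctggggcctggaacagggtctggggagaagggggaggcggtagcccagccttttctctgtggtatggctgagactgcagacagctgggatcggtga
Il34 -4145, intergenic, higher in EPDCs, chr8:110809969-110810168: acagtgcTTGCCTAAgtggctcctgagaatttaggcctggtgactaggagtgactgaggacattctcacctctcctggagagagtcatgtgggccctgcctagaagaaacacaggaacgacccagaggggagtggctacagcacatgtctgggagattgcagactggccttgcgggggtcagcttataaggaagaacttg
Il34 +50978, intron of Il34, lower in EPDCs, chr8:110754846-110755045: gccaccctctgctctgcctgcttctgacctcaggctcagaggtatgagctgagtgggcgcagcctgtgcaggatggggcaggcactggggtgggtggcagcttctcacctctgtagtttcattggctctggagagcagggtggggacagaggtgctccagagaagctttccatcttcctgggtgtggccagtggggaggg

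The *Il33* +5334 window holds TEAD, MAF and C/EBP matches, and *Cx3cl1* +17421 has 2 AP-1 matches side by side and a TEAD match. An AP-1 match also lies in *Il33* −15762, beside a TEAD match. *Cxcl1* +7369 and *Il34* −4145 each hold a C/EBP match, and none was found in *Il34* +86417 and +50978. Among all tested regions, the central 200 bases held AP-1 in 15.8%, TEAD in 19.2%, MAF in 20.8% and C/EBP in 8.11%. Over the whole 501 bp, 13.8% of the 138 cytokine regions and 7.35% of all tested regions held an NF-kB match, 26.1% and 22.7% held AP-1, 39.9% and 33.1% held TEAD, 29.0% and 29.4% held GATA, and 1.45% and 1.95% held TBX20. TBX20 was matched in none of the printed sequences and in 2 cytokine regions, *Csf1* +17167 and *Cxcl12* +10051.

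The measure used throughout is the percentile of a summit among all summits of its library, ranked by the −log10 p of the peak caller. A region or promoter takes the percentile of its strongest summit and 0 where none was called, and differences are in percentile points. A value of 0 says that no summit passed the threshold of the peak caller, not that the chromatin was closed. The libraries held 94909 to 142743 summits, and the most frequent background was 2.07 to 10.9 fragments per position, highest in E13.5 EPDC sample 2. Libraries of one group correlated at r = 0.848 to 0.937 over all regions, and those of different groups at 0.496 to 0.727. The EPDC lists also held summits outside chromosomes 1 to 19, X and Y, which the epicardial lists lacked, so that the cell population and the treatment of the lists cannot be told apart in that comparison. No epicardial library shared an embryonic day with an EPDC library, so the day and the cell population cannot be told apart there. Fewer cells with an open site and a less open site in every cell cannot be told apart in bulk libraries either.

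Marker promoters were compared with the labels. The 9 epicardial marker promoters had a mean percentile of 79.0 to 84.4 in the epicardial libraries and 59.8 to 72.6 in EPDCs. In EPDCs 5 of the 9 were lower by limma (15.2% of all tested promoters were). Of these, *Krt19* was called at E17.5 alone (mean 50.6, against 0 at E11.5 and in EPDCs). It could thus be tested only through the side where it is high, and had to differ. *Upk3b*, a mesothelial uroplakin, stood at 98.7 ± 0.38 (SD, n = 3) at E11.5, 97.5 ± 0.44 at E17.5 and 47.5 ± 25.4 in EPDCs, whereas *Wt1*, *Tbx18* and *Bnc1* passed no test in EPDCs (differences 1.40, 1.03 and 2.68). Nor did *Pdpn*, whose product defined the sort (difference −0.67, SE 1.33, limma adjusted p = 0.751). *Postn*, which encodes the matrix protein periostin of mesenchymal cells, was uncalled at E11.5 and reached 46.1 ± 3.64 at E17.5 and 77.5 ± 5.20 in EPDCs. It was the 1 of 8 mesenchymal promoters called higher in EPDCs, and *Dcn*, the decorin gene, was called lower (difference −5.95, SE 1.02, limma adjusted p = 0.00106). Of 11 macrophage and leukocyte markers, 8 were at 0 in all 9 libraries, among them *Ptprc*, *Spi1*, *Csf1r*, *Adgre1* and *Cx3cr1*, and the mean over the list was 4.2 to 12.6. *Cd68*, a lysosomal glycoprotein, and *Lyz2*, a lysozyme, were called in 8 and 6 libraries, and in EPDCs *Cd68* was lower and *Lyz2* higher by limma (differences −53.0, SE 5.71, and 43.5, SE 7.40, adjusted p = 1.59e-05 and 0.000984). The endothelial markers *Pecam1*, *Cdh5*, *Tie1* and *Emcn* were at 0 in every library, while *Kdr* and *Tek* were called in all 9. The list means were 57.7 to 71.0 in epicardium and 69.9 to 77.8 in EPDCs for 8 mesenchymal genes, 28.3 to 41.3 and 24.0 to 25 for 7 cardiomyocyte genes, and 35.7 to 41.7 and 34.3 to 43.0 for 4 erythroid genes. The part of these markers in the differences below was not tested.

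Promoters of 8 of the 9 cytokine genes were called in all 9 libraries. In order of their mean percentile they were *Csf1* (93.5), *Cxcl1* (91.1), *Ccl7* (89.6), *Cx3cl1* (85.6), *Il6* (84.1), *Ccl2* (78.2), *Cxcl12* (73.4), *Il33* (56.1) and *Il34* (2.59). This order pools 3 groups and is a description. All neighbours in it overlapped in their range over the 9 libraries except *Il33* (36.2 to 71.1) and *Il34* (0 to 23.3). The order differed between groups. At E11.5 the highest mean was that of *Ccl7* (93.2, against 92.4 for *Csf1* and 89.7 for *Cxcl1*), at E17.5 *Cxcl1* (94.9) stood above *Csf1* (94.1) and *Cx3cl1* (79.1) below *Il6* (82.1), and in EPDCs *Cx3cl1* (90.3) stood above *Cxcl1* (88.8) and *Ccl7* (82.7). *Cxcl12* and *Il33* had the same mean of 69.1 at E11.5.

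**Figure D1:**
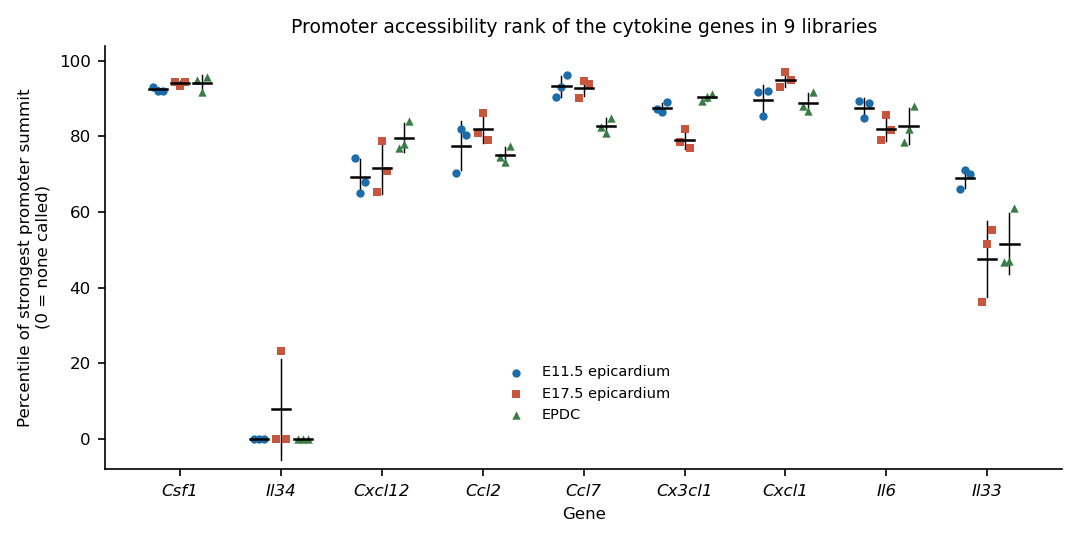
Percentile of the strongest summit within 1 kb of the gene start (y axis, points of the library's summit ranking, 0 where none was called) for the 9 cytokine genes (x axis), with 1 symbol per library and bars for the mean and SD of 3 libraries. *Csf1* lies between 91.6 and 95.6 in all 9 libraries, *Ccl7* is lower in the 3 EPDC libraries, *Cx3cl1* is lowest at E17.5, and *Il34* has a value above 0 in 1 library.

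For the comparison of stages, 2 of the 8 tested cytokine promoters fell from E11.5 to E17.5 (14.0% of all 14941 tested promoters did) and 0 rose (3.84% of all) by limma with Benjamini-Hochberg adjustment over all promoters. At an unadjusted limma p under 0.05, 1 promoter was higher. In the comparison of EPDCs with the mean of both epicardial stages, 1 cytokine promoter was higher (9.62% of all) and 1 lower (15.2% of all). With so few members these shares cannot be set apart from the background. The shares over all promoters, here and below, belong to this ranking. When equally many top summits of each library were ranked, 2135 of all promoters rose with stage and 1517 fell. Exact permutation p-values accompany single promoters, and with 3 libraries against 3 they cannot go below 0.10, whereas 3 against 6 can reach 0.0119.

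Among the ligands of CSF1R, *Csf1* (chr3:107741048-107760469, minus strand) had the most accessible promoter. Its percentiles were 93.1, 92.1 and 92.1 at E11.5, 94.3, 93.4 and 94.5 at E17.5 and 94.9, 91.6 and 95.6 in EPDCs, where the epicardial stages do not overlap but are 1.63 points apart (SE 1.12, limma adjusted p = 0.361). The summit rested on up to 773 fragments and had a fold enrichment of 10.2 to 17.7 over local background. *Il34* (chr8:110741829-110805924, minus strand) had no promoter summit in 8 libraries. In E17.5 replicate 2 it had 2 weak summits at +20 and +365 bp, at percentiles 23.3 and 3.85, the stronger of which rested on 38 fragments.

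Of the chemokine promoters, *Ccl7* (chr11:82045712-82047525, plus strand) differed between EPDCs and epicardium. It stood at 90.5, 93.0 and 96.1 at E11.5, 90.2, 94.5 and 93.8 at E17.5 and 82.4, 80.9 and 84.9 in EPDCs. All 3 EPDC libraries lay below all 6 epicardial libraries, by 10.3 points on average (difference −10.3, SE 1.60, limma adjusted p = 0.000484, exact permutation p = 0.0119). Its summit was at −101 to −54 bp, a stretch that holds the AP-1 match and the second TEAD match printed above. *Ccl2* (chr11:82035571-82037453, plus strand), whose start lies beside it on the same strand, had 70.2, 82.0 and 80.5 at E11.5, 81.0, 86.1 and 79.0 at E17.5 and 74.5, 73.3 and 77.5 in EPDCs. The stages overlapped, and the EPDC libraries lay within the E11.5 range and below all 3 E17.5 libraries (difference −6.92, SE 3.52, limma adjusted p = 0.161, exact permutation p = 0.10, the smallest possible). Neither main comparison passed (stage difference 4.45, SE 3.52, limma adjusted p = 0.439, and EPDC difference −4.70, SE 3.05, adjusted p = 0.287).

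*Cx3cl1* (chr8:94772009-94782427, plus strand) was the promoter that changed in both comparisons. The library values were 87.1, 86.3 and 89.0 at E11.5, 78.5, 81.9 and 77.0 at E17.5 and 89.4, 90.4 and 91.2 in EPDCs, so that the E17.5 libraries were below all others. It fell by 8.35 points with stage (SE 1.94, limma adjusted p = 0.00985), and was 7.03 points higher in EPDCs than in the mean of the epicardial stages (SE 1.68, adjusted p = 0.00917, exact permutation p = 0.0476). Against E11.5 alone the EPDC difference was 2.86 points (SE 1.94, limma adjusted p = 0.337). Ranked by fold enrichment, the stage difference was −1.44 points (limma adjusted p = 0.697), so this call depended on the ranking.

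*Cxcl12* (chr6:117168535-117181367, plus strand) and *Cxcl1* (chr5:90891241-90893115, plus strand) did not pass in either comparison. *Cxcl12* had 74.3, 65.0 and 67.9 at E11.5, 65.3, 78.8 and 70.8 at E17.5 and 76.9, 77.9 and 83.9 in EPDCs (EPDC difference 9.21, SE 3.65, limma adjusted p = 0.0834). *Cxcl1* had 91.8, 85.3 and 92.0 at E11.5, 93.0, 96.9 and 94.8 at E17.5 and 88.0, 86.8 and 91.8 in EPDCs. Its E17.5 libraries were above all E11.5 libraries by 5.20 points on average (SE 1.96, limma adjusted p = 0.0877). Under some rankings both of these differences passed, with the direction unchanged.

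For *Il6* (chr5:30013114-30019981, plus strand) the percentiles were 89.2, 84.7 and 88.7 at E11.5, 78.9, 85.6 and 81.7 at E17.5 and 78.6, 81.8 and 88.0 in EPDCs, which overlap (stage difference −5.51, SE 2.75, limma adjusted p = 0.197). The position of the strongest summit was noticed after the values were seen. It lay downstream of the gene start, at +150 to +180 bp, in the 3 E11.5 libraries, E17.5 replicate 1 and the 3 EPDC libraries, and upstream, at −159 and −127 bp, in E17.5 replicates 2 and 3. An upstream *Il6* summit was called in 7 libraries, at percentiles 63.2 and 31.7 in E11.5 replicates 2 and 3, 70.1, 85.6 and 81.7 at E17.5, 50.03 in E12.5 EPDC sample 1 and 56.9 in E13.5 EPDC sample 1. The C/EBP match printed above starts at −128, at the downstream edge of this stretch.

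*Il33* (chr19:29925114-29960718, plus strand) had the weakest promoter of those called in every library. It stood at 66.1, 71.1 and 70.0 at E11.5, 36.2, 51.4 and 55.2 at E17.5 and 46.8, 47.2 and 61.0 in EPDCs, and the stages do not overlap. The promoter fell by 21.4 points with stage (SE 6.29, limma adjusted p = 0.0317). The *Il33* summit rested on 54, 63 and 57 fragments in the E11.5 libraries against 32, 69 and 70 in those of E17.5, so that 2 of the 3 E17.5 libraries held more fragments there, over a local background of 14.2 and 13.2 against 5.53 to 6.09 at E11.5. The call was lost without E11.5 replicate 1 (limma adjusted p = 0.0658), 2 (0.107) or 3 (0.0959) or E17.5 replicate 1 (0.109), in which the difference was −22.9, −20.4, −21.0 and −15.8 points. Ranked by fold enrichment the difference was −40.9 points (adjusted p = 0.00048). A further *Il33* transcript starts in the gene at a region 20615 bp downstream (chr19:29945479-29945979), and with any transcript start allowed the stage difference was −0.63 points. That region stood at 72.3, 79.0 and 80.1 at E11.5, 74.9, 80.2 and 74.4 at E17.5 and 57.6, 38.9 and 57.5 in EPDCs, all 3 of which lay below the epicardial libraries (difference −25.5, SE 4.56, limma adjusted p = 0.00221, exact permutation p = 0.0119).

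The promoters also differ in base composition. In the kilobase centred on the gene start, GC content ran from 43.3% in *Ccl7* to 62.3% in *Cxcl12*, against a median of 54.8% over all genes. The observed over expected CpG ratio was 0.09 in *Ccl7*, 0.13 in *Ccl2* and 0.78 in *Cxcl12*, against a median of 0.552. *Csf1*, with the highest percentile, had 61.3% GC and a ratio of 0.62.

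The number of summits in each locus was set against the length of its library's list. Per 100000 summits, *Cxcl12* held 9.21, 9.81 and 10.2 at E11.5, 7.38, 5.47 and 5.59 at E17.5 and 11.8, 12.1 and 10.6 in EPDCs. All 3 groups were apart for this locus (exact permutation p = 0.10 between stages, the smallest possible, and 0.0238 for EPDCs). In *Il33* the means were 9.35 ± 2.06 (SD, n = 3) at E11.5, 12.4 ± 0.282 at E17.5 and 7.64 ± 1.16 in EPDCs (exact permutation p = 0.10 and 0.0595). On this scale *Csf1*, *Il34* and *Il6* also had more summits at E17.5 in every library, at 14.9 against 18.4, 18.4 against 22.9 and 1.98 against 3.598, and *Cx3cl1* fewer, at 12.1 against 9.65. Each of these stands at the exact permutation p of 0.10. As plain counts, the stages overlapped in *Csf1* (16, 22 and 22 against 18, 25 and 18) and *Il34* (24, 23 and 26 against 22, 31 and 23). They also overlapped in *Il6* (2, 3 and 3 against 3, 5 and 4) and *Il33* (13, 10 and 14 against 12, 16 and 13). In *Cx3cl1* the plain counts did not overlap (16, 17 and 15 against 9, 13 and 10). The windows differ in length, from 101.8 kb in *Ccl7* to 119.4 kb in *Csf1* and 164.1 kb in *Il34*, so counts were not compared between loci. *Il34* held 24.0 ± 2.55 in EPDCs, and *Il6* had 2 to 5 summits in any library.

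**Figure D2:**
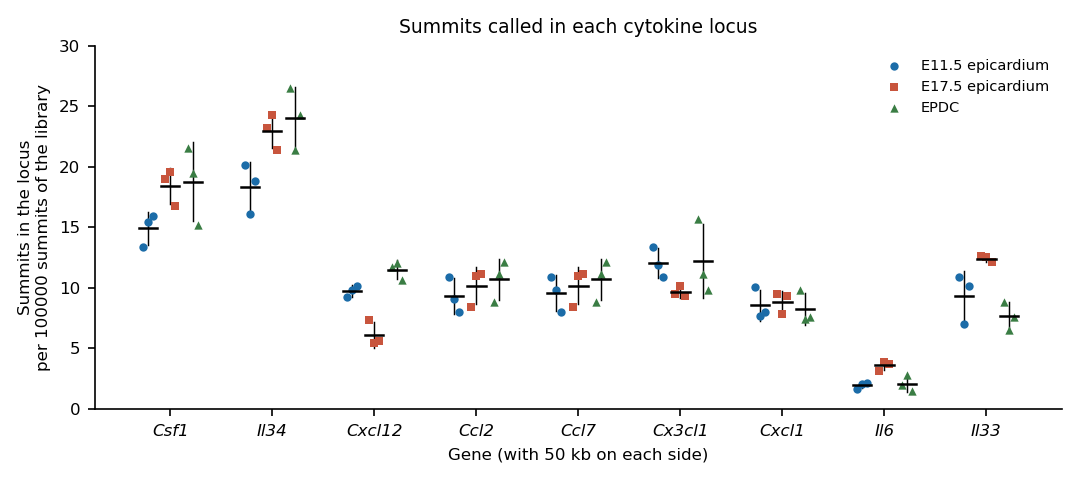
Summits inside each cytokine gene or within 50 kb of it, per 100000 summits of the library (y axis), for each gene (x axis), with 1 symbol per library and bars for mean and SD of 3 libraries. *Cxcl12* is lowest at E17.5, *Il33* is highest at E17.5, and *Il6* stays below 5 in all 9 libraries.

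Over the 138 tested regions of the 9 loci, 13 (9.42%) rose from E11.5 to E17.5, where 8.9% of all tested regions did, and 35 (25.4%) fell, where 24.9% of all did. The median difference was −1.82 points in the cytokine regions and −4.10 over all regions. In EPDCs 30 regions (21.7%) were higher than in epicardium, against 18.6% of all, and 30 (21.7%) were lower, against 21.8% of all, with medians of −1.55 and −2.61. All 4 shares were close to the background. Among the 13, *Csf1* +53705 takes summits that belong as much to a neighbour, and by overlap of whole intervals 12 rose. The tendency downwards with stage moved with the length of the lists. When equally many top summits of each library were ranked, 24 regions rose and 28 fell with stage (46.2% of calls higher in place of 27.1%, and 45.7% in place of 26.3% over all regions), and 40 were higher and 26 lower in EPDCs (60.6% higher in place of 50%, and 50.5% in place of 46.1% over all regions). Of the 48 stage calls 37 were kept whichever library was left out, and of the 60 EPDC calls 36 were.

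The strictest pattern is a region called in every library of one group and in none of another. Between stages, 6 regions were called in all 3 E17.5 and no E11.5 libraries (4.35%, against 5.07% of all tested regions) and 10 in all 3 E11.5 and no E17.5 libraries (7.25%, against 12.6%). In the other comparison, 6 were called in all 3 EPDC and no epicardial libraries (4.35%, against 3.72%) and 3 in all 6 epicardial and no EPDC libraries (2.17%, against 2.55%). Of these, 3 of the 6 E17.5 regions lie in *Il33*, and 3 of the 6 EPDC regions lie in the *Il34* locus. A region called in fewer than 2 libraries outside the side of the comparison where it is high passed the filter through that side and had to differ, so its values are given below without a p-value. Such regions made up 5 of the 13 rises and 5 of the 35 falls with stage, and 10 of the 30 higher and 18 of the 30 lower calls in EPDCs.

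**Figure D3:**
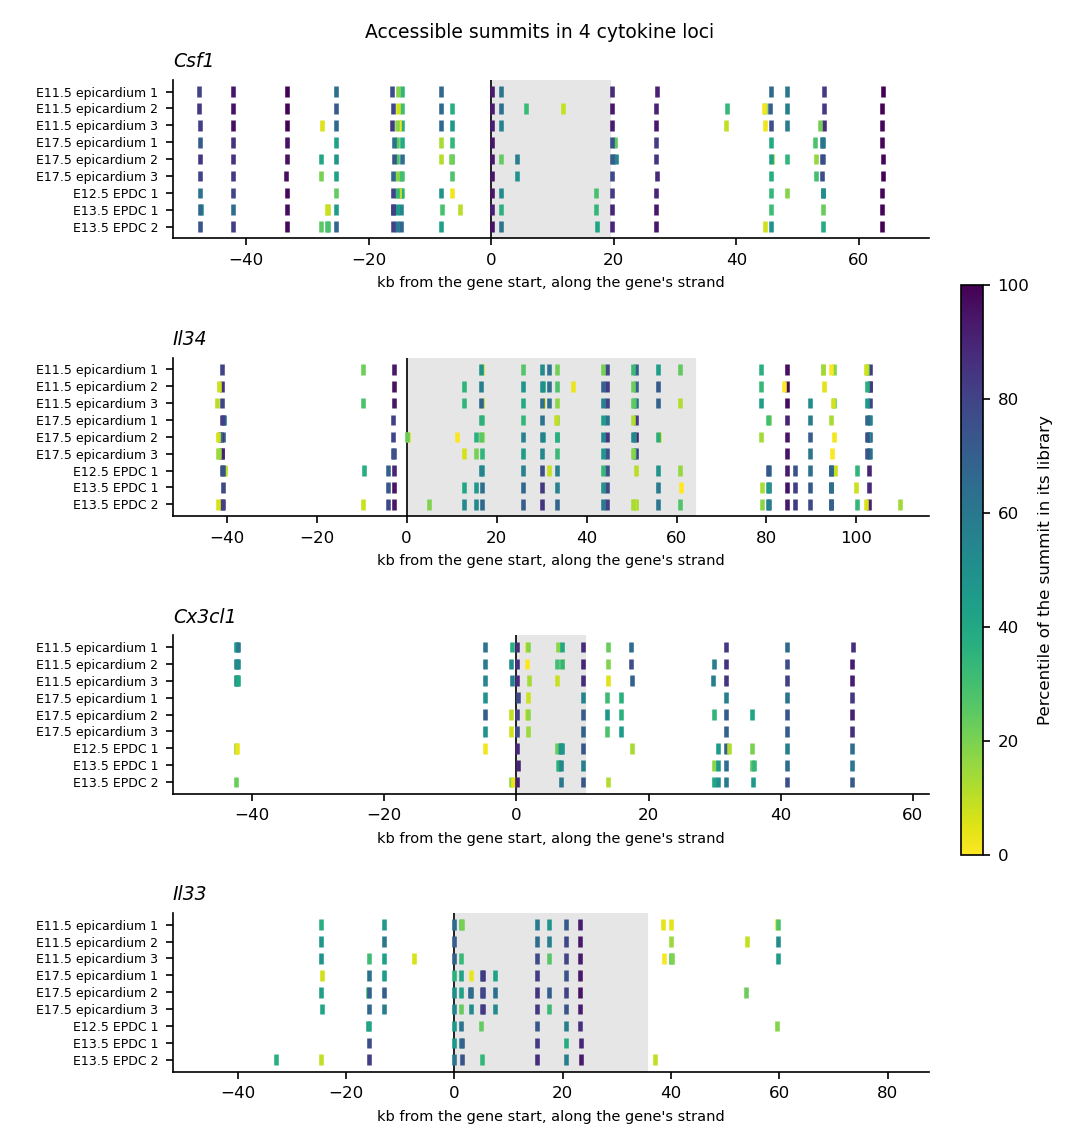
Summits called in the *Csf1*, *Il34*, *Cx3cl1* and *Il33* loci, 1 row per library, with the distance from the gene start along the strand of the gene in kb (x axis), the gene body in grey and the percentile of each summit as colour. Summits in the first 10 kb of *Il33* cluster in the E17.5 rows, and *Il34* shows columns of summits in the 3 EPDC rows alone.

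Around *Csf1*, 26 of 29 regions were tested. With stage 2 rose and 8 fell, and in EPDCs 2 were higher and 7 lower (6 and 5 with equally many top summits, 2 and 2 when ranked by fold enrichment). For this and every locus below, the shares of all tested regions were 8.9% and 24.9% with stage and 18.6% and 21.8% in EPDCs. Of the 2 rises, that at +53705 bp is not read as one, as set out below, and the other, at +52919 bp (chr3:107707300-107707800), was called at E17.5 alone, at 28.4, 16.1 and 29.9. An intergenic region at −8213 bp (chr3:107768432-107768932) stood at 66.5, 65.2 and 66.2 at E11.5, 13.1, 11.1 and 0 at E17.5 and 48.7, 29.0 and 43.2 in EPDCs. The E17.5 libraries lay far below the others, and the region fell by 57.9 points (SE 6.71, limma adjusted p = 0.000212). An intronic region at +1607 bp (chr3:107758612-107759112) had 60.9, 62.7 and 55.2 at E11.5, 0, 23.8 and 0 at E17.5 and 52.1, 36.1 and 60.9 in EPDCs, and fell by 51.7 (SE 8.698, adjusted p = 0.00169). At +48316 bp (chr3:107711903-107712403) 60.5, 57.3 and 58.2 at E11.5 stood against 1 value above 0 in each other group, 34.6 at E17.5 and 18.6 in EPDCs (stage difference −47.2, SE 9.95, adjusted p = 0.00553).

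Further into the *Csf1* gene, an intronic region at +17167 bp (chr3:107743052-107743552) was uncalled in the 6 epicardial libraries and had 29.6, 34.0 and 41.7 in EPDCs (difference 35.1). Downstream of the gene, a region at +54232 bp (chr3:107705987-107706487) had 82.7, 82.6 and 86.3 at E11.5, 61.8, 77.4 and 77.3 at E17.5 and 51.3, 23.4 and 39.1 in EPDCs. The EPDC values lay below all 6 epicardial ones, by 40.1 points on average (difference −40.1, SE 6.13, limma adjusted p = 0.000963). In its neighbour at +53705 bp the stage difference was 65.2 (SE 9.19, adjusted p = 0.000639), but the E17.5 summits counted there lie at +54016 to +54065 and belong as much to the region at +54232. By overlap of whole intervals the same difference was −11.7, so no rise is read from it. The strongest region of the *Csf1* window outside its promoter, at +63841 bp, is the promoter of *Ahcyl1* (98.4 to 99.7 in the 9 libraries).

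The *Il34* locus, whose own promoter was all but uncalled, held 36 regions, of which 30 were tested. With stage 3 rose and 7 fell (8.9% and 24.9% of all tested regions did), and 11 were higher in EPDCs and 4 lower (18.6% and 21.8% of all). An intergenic region at −4145 bp (chr8:110809819-110810319) was uncalled in all epicardial libraries and stood at 69.5, 72.3 and 78.3 in EPDCs (difference 73.4). At −2862 bp (chr8:110808536-110809036), a region named after its values were seen had 93.4, 95.5 and 94.3 at E11.5, 80.7, 79.6 and 74.8 at E17.5 and 89.2, 94.6 and 94.0 in EPDCs. The E17.5 libraries were apart from both other groups, and it fell by 16.1 points with stage (SE 1.94, limma adjusted p = 0.000273).

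Inside the *Il34* gene, the region at +50978 bp (chr8:110754696-110755196, intron) had 70.2, 68.5 and 63.2 at E11.5, 82.5, 90.3 and 83.3 at E17.5 and 10.2, 0 and 13.8 in EPDCs. It was thus high in the epicardium and near the bottom of the ranking, or uncalled, in EPDCs (difference −68.4, SE 4.56, limma adjusted p = 1.03e-05, exact permutation p = 0.0119). The intronic region at +31639 bp (chr8:110774035-110774535) had 61.0, 63.9 and 64.4 at E11.5, was uncalled at E17.5 and had a value in 1 EPDC library, 8.81 (stage difference −63.1). At +55905 bp (chr8:110749769-110750269, intron) 44.9, 72.1 and 69.1 at E11.5 stood against 0, 36.9 and 0 at E17.5, a fall by 49.8 (SE 11.3, adjusted p = 0.008).

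Beyond the 3′ end of *Il34*, 2 neighbouring genes fill the window, *Mtss1l* and *Vac14*, and regions there may belong to them. The region at +86417 bp (chr8:110719257-110719757) lies in an intron of *Vac14*, at −1969 bp from the start of *Mtss1l*. It was uncalled in 6 epicardial libraries and stood at 74.4, 81.7 and 83.2 in EPDCs (difference 79.8). At +94460 bp, in an exon of *Vac14* (chr8:110711214-110711714), the epicardial libraries reached 13.0 at most and EPDCs had 67.1, 78.5 and 77.0 (difference 70.7, SE 5.40, limma adjusted p = 2.12e-05, exact permutation p = 0.0119). At +80364 bp, in an intron of *Mtss1l* (chr8:110725310-110725810), 73.7, 61.7 and 60.2 in EPDCs stood against a single epicardial value above 0, of 29.9 (difference 60.2). The strongest region outside the promoter, at +84566 bp, lies at −118 bp from the start of *Mtss1l* and had 90.6 to 97.6 in the 9 libraries. At +89686 bp, in an intron of *Vac14*, 0, 0 and 51.4 at E11.5 stood against 58.8, 70.9 and 60.3 at E17.5 and 63.5, 72.6 and 77.8 in EPDCs (stage difference 46.2, SE 12.8, limma adjusted p = 0.0205), a call lost in 4 of the leave-outs.

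**Figure D4:**
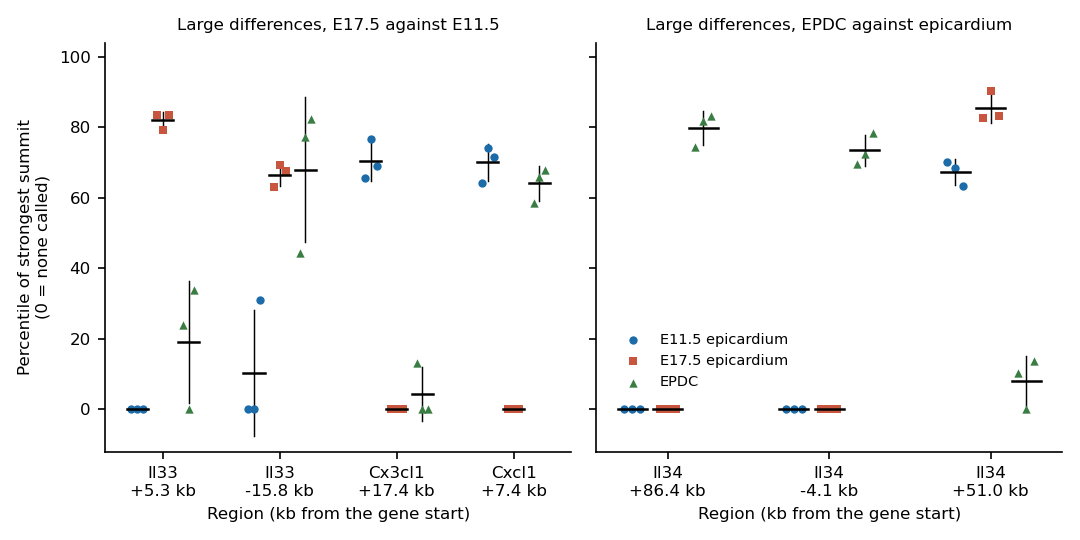
Percentile of the strongest summit (y axis, 0 where none was called) in the 7 regions whose sequences are printed, by library, with mean and SD bars; the left panel shows regions chosen for a large stage difference and the right panel those chosen for a large EPDC difference, with the distance from the gene start in kb on the x axis. *Il33* +5.3 kb is 0 in the 3 E11.5 libraries and between 79.2 and 83.4 in the 3 E17.5 libraries, and *Il34* +86.4 and −4.1 kb are above 0 in EPDCs alone.

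Of the 17 *Cxcl12* regions 14 were tested. With stage 0 rose and 3 fell (8.9% and 24.9% of all tested regions), and in EPDCs 4 were higher and 0 lower by limma (18.6% and 21.8% of all, and at an unadjusted p under 0.05, 0 of 6 and 7 of 7 were higher). The region at +42190 bp (chr6:117210475-117210975, intergenic) had 83.0, 81.2 and 87.5 at E11.5, 49.9, 33.6 and 8.42 at E17.5 and 91.0, 93.0 and 92.6 in EPDCs. All 3 groups were apart, with a fall by 53.3 points with stage (SE 8.53, limma adjusted p = 0.0013) and a difference of 34.9 in EPDCs (SE 7.39, adjusted p = 0.00532). At −38934 bp (chr6:117129351-117129851) 30.4, 31.2 and 28.3 at E11.5 and 42.8, 42.7 and 62.9 in EPDCs stood against no call at E17.5 (stage difference −30.0, SE 6.57, and EPDC difference 34.5, SE 5.69, limma adjusted p = 0.00651 and 0.00136). The stage call there was lost when equally many summits were ranked or a stricter threshold was used.

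At −15213 bp of *Cxcl12* (chr6:117153072-117153572) the values were 9.83, 11.9 and 22.3 at E11.5 and 33.3, 21.2 and 47.2 in EPDCs, with no call at E17.5. Here E11.5 and EPDC values overlapped. The EPDC difference of 26.6 passed (SE 6.22, limma adjusted p = 0.00882), against an epicardial mean that includes the missing E17.5 calls. The stage difference did not pass (limma adjusted p = 0.145). The strongest region outside the promoter, at −1516 bp, lay between 67.7 and 82.2 in all 9 libraries and passed neither test. At +62456 bp (chr6:117230741-117231241) 67.2, 70.5 and 60.5 at E11.5 and 63.9, 58.0 and 69.6 in EPDCs stood above 49.9, 35.5 and 29.1 at E17.5 (stage difference −27.9, SE 6.27, limma adjusted p = 0.00767), a call lost with equally many summits.

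*Ccl2* and *Ccl7* share 19 tested regions, of which 1 rose and 4 fell with stage, and 5 were higher and 4 lower in EPDCs. Distances here are from *Ccl2*. The region at −14366 bp (chr11:82020955-82021455) had 92.8, 91.0 and 89.5 at E11.5, 67.0, 75.2 and 72.0 at E17.5 and 63.2, 55.8 and 61.6 in EPDCs. It was highest at E11.5 and lowest in EPDCs, without overlap, and fell by 19.7 points with stage (SE 2.95, limma adjusted p = 0.000896), a call lost when summits were ranked by fold enrichment, and was 21.1 points lower in EPDCs (difference −21.1, SE 2.55, adjusted p = 0.000275). At −21623 bp (chr11:82013698-82014198) 44.2, 53.5 and 69.8 at E11.5 stood against 0, 19.3 and 0 at E17.5 and no call in EPDCs (stage difference −49.4 and EPDC difference −31.1). The region beside it, at −23645 bp, had 72.4 to 84 at E11.5, 51.6, 53.0 and 63.5 at E17.5 and 73.0, 78.7 and 80.3 in EPDCs, and fell by 21.6 points with stage (SE 4.34, limma adjusted p = 0.00429). At +31277 bp, beyond *Ccl7*, 37.4, 39.9 and 33.6 at E11.5 and 1 E17.5 value of 39.2 stood against no call in EPDCs.

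In the opposite direction, the *Ccl2* region at −28543 bp (chr11:82006778-82007278), named after its values were seen as the 1 region here that rose with stage, had 72.7, 73.8 and 74.3 at E11.5, 86.1, 84.4 and 78.0 at E17.5 and 88.9, 89.9 and 92.4 in EPDCs. The 3 groups did not overlap, with differences of 9.24 with stage (SE 2.19, limma adjusted p = 0.00988) and 12.2 in EPDCs (SE 1.90, adjusted p = 0.00105). Between both genes, at +6335 bp (chr11:82041656-82042156), a summit was called in EPDCs alone, at 32.0, 41.9 and 40.3 (difference 38.1). At −15989 bp EPDCs had 37.4, 36.0 and 65.02, above the 0 to 27.7 of the epicardium (difference 32.3, SE 9.27, limma adjusted p = 0.0226, exact permutation p = 0.0238), a call lost with the depth-normalized score and without E13.5 EPDC sample 2 (difference 22.8). The strongest shared region, at −2415 bp in an intron of *Gm17268* (chr11:82032906-82033406), had 96.7, 95.8 and 96.4 at E11.5, 89.8, 92.0 and 90.9 at E17.5 and 95.02, 95.8 and 97.5 in EPDCs, and fell by 5.37 points with stage (SE 0.934, limma adjusted p = 0.00197).

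All 17 regions of the *Cx3cl1* locus were tested. With stage 1 rose and 7 fell (2 and 3 when ranked by fold enrichment), and in EPDCs 3 were higher and 7 lower (3 and 5). Of all tested regions, 8.9% rose and 24.9% fell with stage, and 18.6% were higher and 21.8% lower in EPDCs. Downstream of the gene, at +17421 bp (chr8:94789180-94789680), the AP-1 containing region printed above had 65.5, 76.6 and 69.0 at E11.5, no call at E17.5 and 13.1, 0 and 0 in EPDCs. The stage difference was −70.4 points, whereas at +15842 bp (chr8:94787601-94788101) a summit was called at E17.5 alone, at 36.0, 36.2 and 45.5 (difference 39.2). Far upstream, at −42064 bp (chr8:94729695-94730195), 59.7, 57.0 and 50.1 at E11.5 stood against no call at E17.5 (stage difference −55.6, SE 6.74, limma adjusted p = 0.000275). The nearest gene start to it is that of *Ccl22*, another chemokine gene. At −734 bp, beside the promoter summit, 36.6, 51.1 and 56.5 at E11.5 stood against 0, 9.09 and 7.30 at E17.5 and 0, 0 and 16.2 in EPDCs (stage difference −42.6, SE 7.26, limma adjusted p = 0.00181), a call lost by interval overlap.

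Of the *Cx3cl1* regions that differed in EPDCs, the one at +30488 bp (chr8:94802247-94802747) lies at −7956 bp from the start of *Ccl17* and was called in EPDCs alone, at 44.9, 46.5 and 50.7 (difference 47.4). The intronic region at +6710 bp (chr8:94778469-94778969) had 40.5, 34.7 and 8.49 at E11.5, no call at E17.5 and 52.1, 53.8 and 60.5 in EPDCs (EPDC difference 41.5, SE 7.18, limma adjusted p = 0.00187). At +50788 bp, in an exon of *Ciapin1*, EPDCs had 63.9, 60.4 and 72.5, below the 83.4 to 92.5 of the epicardium (difference −23.1, SE 2.93, adjusted p = 0.000356).

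At *Cxcl1* 12 of 13 regions were tested, with 1 higher and 4 lower at E17.5 and 3 higher and 2 lower in EPDCs. The window also holds *Cxcl2*, another neutrophil chemokine gene. Between both genes, at +7369 bp (chr5:90898360-90898860), the values were 64.3, 74.1 and 71.6 at E11.5 and 58.5, 65.9 and 67.9 in EPDCs, with no call at E17.5. The region fell by 70.0 points with stage (difference −70.0, SE 5.30, limma adjusted p = 2.91e-05), and the EPDC difference of 29.1 (SE 4.59, adjusted p = 0.00105, exact permutation p = 0.441) comes from the missing E17.5 calls in the epicardial mean, since E11.5 and EPDC values overlap. Upstream, at −9333 bp (chr5:90881658-90882158), a summit was called at E17.5 alone, at 30.0, 69.6 and 54.9 (difference 51.5).

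Nearer to the *Cxcl1* start, at −6288 bp (chr5:90884703-90885203, named after its values were seen), 95.4, 95.7 and 96.4 at E11.5 stood against 72.5, 83.4 and 75.9 at E17.5 and 87.2, 87.4 and 84.2 in EPDCs. The 3 groups did not overlap, apart by a fall of 18.6 points with stage (difference −18.6, SE 2.46, limma adjusted p = 0.000463). At −28306 bp 9.83, 33.5 and 38.4 at E11.5 stood against a single value of 1.43 at E17.5 and none in EPDCs. At +17935 bp, near *Cxcl2*, EPDCs had 0, 25.5 and 55.1, against 41.9 to 69.3 in the epicardium, with overlap (difference −29.9, SE 10.1, limma adjusted p = 0.0421, exact permutation p = 0.0595). This call was lost with no filter and in 8 of the 9 leave-outs, where the difference ran from −44.0 to −16.4. The strongest region of the locus, at −15007 bp, had 92.0 to 98.3 in the 9 libraries. The gene promoter stood at 89.7 ± 3.82 (SD, n = 3) at E11.5 and 94.9 ± 1.94 at E17.5.

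*Il6* had 4 regions, all tested, and by limma none passed in either comparison (0 and 2 at an unadjusted p under 0.05 for stage and EPDCs, and 0 and 1 by the exact permutation test). Ranked by fold enrichment 1 region was lower in each comparison, and in EPDCs 1 was higher with equally many top summits and 1 lower with the depth-normalized score. Its strongest region outside the promoter, at −11997 bp (chr5:30000867-30001367), was called in 1 E17.5 library at 15.0 and in both E13.5 EPDC libraries, at 35.0 and 58.5. At +24264 bp (chr5:30037128-30037628) weak summits were called in the 6 epicardial libraries, at 0.97 to 27.8, and in no EPDC library (difference −15.0).

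In *Il33*, 5 of 16 tested regions rose with stage and 2 fell, where 8.9% and 24.9% of all tested regions did, the 1 locus with more gains than losses in this ranking, while 2 were higher and 6 lower in EPDCs. Regions called at E17.5 alone, as at +7504 and +2971 bp below, passed the filter through that side and had to differ. The counts are therefore a description. With equally many top summits the stage counts were 7 against 2, and *Il34* (7 against 5) and *Cxcl1* (4 against 3) then also had more gains, whereas ranking by fold enrichment gave 3 against 3 in *Il33*. The intronic region at +5334 bp (chr19:29930198-29930698) was uncalled in the 3 E11.5 libraries and stood at 83.4, 79.2 and 83.3 at E17.5 and 23.9, 0 and 33.7 in EPDCs. It rose by 82.0 points with stage (SE 8.25, limma adjusted p = 0.000109). At +7504 bp (chr19:29932368-29932868), also intronic, a summit was called at E17.5 alone, at 41.9, 64.5 and 52.1 (difference 52.8). The same held at +2971 bp (chr19:29927835-29928335), with 3.35, 70.7 and 52.6 (difference 42.2).

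Upstream of *Il33*, the region at −15762 bp (chr19:29909102-29909602) had 0, 0 and 31.0 at E11.5, 62.9, 69.2 and 67.4 at E17.5 and 44.4, 77.1 and 82.3 in EPDCs, and rose by 56.2 points with stage (SE 11.4, limma adjusted p = 0.00455). At −12997 bp (chr19:29911867-29912367) 45.3, 60.4 and 42.7 in the E11.5 libraries, together with 45.2, 70.0 and 57.3 at E17.5, stood against no call in EPDCs (difference −53.5). The intronic region at +1383 bp (chr19:29926247-29926747) was higher in EPDCs, at 62.1, 70.3 and 74.5, than in the epicardium, at 0 to 43.4 (difference 40.9, SE 8.23, limma adjusted p = 0.0041, exact permutation p = 0.0119). At +17507 bp, in an intron, the E11.5 libraries had 48.0, 57.2 and 26.4, those of E17.5 had 0, 70.7 and 32.3, and EPDCs had no call (difference −39.1). The strongest *Il33* region, at +23260 bp in an intron, lay at 86.6 to 95.01 in all 9 libraries and passed neither test.

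The promoters of the receptors were read in the same fit. *Cxcr4*, *Ackr3*, *Il6ra*, *Il6st* and *Il1rap* were called in all 9 libraries, and *Csf1r*, *Ccr2*, *Cx3cr1*, *Cxcr2* and *Il1rl1* in none. Of the 5 tested receptor promoters none passed by limma (1 and 0 at an unadjusted p under 0.05 for stage and EPDCs). *Ackr3*, the scavenger of CXCL12, stood at 92.6 ± 0.38 (SD, n = 3) at E11.5, 87.1 ± 2.64 at E17.5 and 87.4 ± 4.04 in EPDCs, and *Cxcr4* at 76.9 ± 1.34, 70.9 ± 4.44 and 77.0 ± 2.83. *Il6st* was at 97.4 ± 0.65, 98.2 ± 0.44 and 97.9 ± 0.85.

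Among 21 other leukocyte ligand genes, 7 promoters were tested. With stage 2 rose (3.84% of all tested promoters did) and 1 fell (14.0% of all), and in EPDCs 0 were higher (9.62% of all, and 0 here at an unadjusted limma p under 0.05) and 3 lower (15.2% of all). *Csf3*, the granulocyte growth factor gene, had 14.4 ± 20.9 (SD, n = 3) at E11.5, 60.3 ± 7.22 at E17.5 and 0.92 ± 1.60 in EPDCs (stage difference 45.9, SE 8.99, limma adjusted p = 0.0035). *Cxcl16*, a membrane-bound chemokine, had 65.6 ± 4.17, 90.2 ± 1.28 and 65.2 ± 10.7 (stage difference 24.6, SE 4.78, adjusted p = 0.00332). *Cxcl5*, a neutrophil chemokine, went from 76.7 ± 3.51 to 49.7 ± 6.74 (difference −27.0, SE 4.94, adjusted p = 0.00219). *Cxcl14* was lower in EPDCs (difference −7.05, SE 1.54, adjusted p = 0.00539).

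Of 9 inflammatory transcription factor genes, all called in 9 libraries, 2 promoters rose with stage (3.84% of all tested promoters did) and none fell (14.0% of all), and none passed in EPDCs by limma (1 at an unadjusted p under 0.05). The balance over all promoters depended on the ranking, with 3768 higher and 1441 lower at E17.5 by the depth-normalized score. *Nfkb1*, which encodes the p50 subunit of NF-kB, had 79.3 ± 3.27 (SD, n = 3) at E11.5, 88.8 ± 2.07 at E17.5 and 86.2 ± 3.24 in EPDCs (stage difference 9.49, SE 2.41, limma adjusted p = 0.0156). *Cebpb*, a C/EBP factor of acute-phase genes, had 84.4 ± 1.24, 92.0 ± 1.71 and 85.1 ± 4.29 (stage difference 7.62, SE 2.17, adjusted p = 0.0275).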

How the data were processed

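The data were narrowPeak lists of bulk ATAC-seq from 10 samples, held in 9 lists. Per the study's methods and the labels, reads were processed by the authors with the nf-core atacseq pipeline on mm10, duplicate, multimapped, blacklisted and mitochondrial reads were to be removed (the EPDC lists still held mitochondrial summits), and peaks were called on whole fragments per library (MACS2, version 2.2.9.1, q-value threshold 0.01) with all summits of an interval kept. Each deposited summit carries 3 values made by the authors with MACS2, namely fold enrichment over the local background, the −log10 p of that excess and its −log10 q. They were left on the scale of their own library, so a rank within each library was used here. The authors' window test starts from reads and was not repeated, and the E13.5 epicardium was not analysed here.

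Summits on chromosomes 1 to 19, X and Y were ranked by −log10 p. Summits widened by 250 bp on each side to 501 bp gave the regions, and overlapping ones were removed in order of score. A region took the strongest summit within 500 bp of its centre, so that close regions can share a summit. Regions and promoters called in at least 2 of 9 libraries were tested with limma 3.58.1 (trend and robust, Benjamini-Hochberg adjustment over all of them, threshold 0.05, two-sided) with the 9 libraries in 1 fit of 3 groups. Single values were compared by two-sided exact permutation tests over 20 (3 against 3) or 84 (3 against 6) assignments. The methods take E12.5 and E13.5 EPDCs as 1 stage, while the labels give both days, and p-values measure the spread between libraries of pooled hearts. Numbers of fragments were solved from fold enrichment and −log10 p and cover counting error only.

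The members and lists were chosen with earlier results of these data known. Named were each promoter, the strongest region outside it, up to 3 regions per gene and comparison of largest difference, and up to 2 regions called in all of one group and none of another. Regions at −2862 (*Il34*), −28543 (*Ccl2*) and −6288 bp (*Cxcl1*) were added after their values were seen, and one region is not reported here. Gene starts, sequences and positions came from GRCm38 with GENCODE M21, and all peaks lay inside its chromosomes. On simulated shifts of 50 points between stages, limma found 105 of 200 changed regions among 157289 (6 false calls) and 181 of 200 promoters among 14941 (8 false calls). In the data 14004 regions were called higher and 39186 lower with stage, far more than were shifted there. The rates of the simulation thus need not hold for the data. Replicate numbers did not pair the epicardial libraries. Alternatives were ranking by fold enrichment, equally many top summits, log2(depth-normalized score + 1), a −log10 q of at least 5, other rules of overlap, windows and promoters, no filter, each library left out and a replicate block. R 4.3.3, Python 3.11.15, numpy 2.4.6, pandas 2.3.3, scipy 1.17.1, pysam 0.24.0 and matplotlib 3.10.9 were used.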

Additional observations from a re-analysis of the deposited data

Results flagged for a closer look

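The EPDC lists held summits outside chromosomes 1 to 19, X and Y, a class that no comparison used and that was absent from all 6 epicardial lists. There were 268 in E12.5 EPDC sample 1, 263 in E13.5 EPDC sample 1 and 252 in E13.5 EPDC sample 2, of which 47, 45 and 25 lay on the mitochondrial chromosome. Their part in the EPDC differences was not tested. In no group of the comparisons were there 4 libraries or more, so that outlying libraries within a group were not examined by a formal rule.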

How the results depend on the processing

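Among the cytokine regions, the 13 that rose with stage became 24 when equally many top summits were ranked and 8 in windows of 25 kb, and 9 to 15 when 1 library was left out, and the 35 that fell were 30 to 37 in the leave-outs. In EPDCs the 30 higher regions became 19 against E11.5 alone and 21 to 41 in the leave-outs, and the 30 lower ones 16 to 34, with 19 without the E12.5 EPDC library and 16 without E13.5 EPDC sample 1. Of cytokine promoters, 0 rose with stage, against 2 with equally many summits and 3 with the depth-normalized score. Over all promoters the balance moved too, from 573 higher and 2097 lower to 2135 and 1517 with equally many summits and 3768 and 1441 with the score. The 2 cytokine promoters that fell became 1 with the score and 1 with any transcript start, and 1 to 2 in the leave-outs. The 1 cytokine promoter higher in EPDCs became 2 when ranked by fold enrichment, 2 with equally many summits, 2 with the score and 0 against E11.5 alone, and 1 to 2 in the leave-outs (2 without E17.5 replicate 2). Over all promoters, 1437 were higher in EPDCs in the main ranking, 2334 by fold enrichment, 2008 with equally many summits and 2564 with the score. The 1 cytokine promoter that was lower became 2 with any transcript start and 2 against E17.5 alone, and 1 to 2 in the leave-outs (2 without E11.5 replicate 2). The cause was not tested. The stage difference of the Csf1 region at +53705 bp, 65.2 points, turned to −11.7 by interval overlap, which counts the neighbouring summit in every library. With the replicate number as a block (replicate block), 1 promoter (*Cxcl1*) rose with stage, 16 regions rose and 41 fell. Deviations of libraries with the same number correlated at 0.014, 0.034 and −0.025, so the numbers name the libraries and do not pair them. Leave-outs aside, over all other alternatives of the named regions, 403 values kept their call and 42 lost it, and of those of the promoters 120 kept their side of the threshold, 12 passed it newly and 4 lost it. Of all region calls in the cytokine loci, 37 of 48 with stage and 36 of 60 in EPDCs were kept in every leave-out, and the others were lost in 1 or more. A list's depth limits which weak regions it calls, and the background was lowest in E17.5 replicate 1 (2.07 fragments per position).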
